A study of Homo sapiens with 6 samples.

Results

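Cell junctions hold an epithelial sheet together, and 2 splicing factors give many of its transcripts their epithelial form. The genes described here are 10 of this kind, EPCAM, ESRP1, ESRP2, CLDN1, CLDN4, CLDN7, OCLN, TJP1, DSP and JUP, chosen by symbol from 25737 entries of the count tables. Each of the 10 symbols had 1 entry. In the untreated cells, A549 contained counts of 9 of them and BEAS-2B of 8. After 5 ng/mL TGF-β1, CLDN1 and JUP were lower in both cell lines by at least 2-fold among genes of sufficient level, as that level was set here. DSP and TJP1 had at least 335 counts in every library. At the same dose, CLDN4 was higher than in the control in both cell lines from low counts. EPCAM went from 49 counts to 2 in A549 cells and had 0 counts in every BEAS-2B library.

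The study treated 2 lung epithelial cell lines with TGF-β1, a cytokine that drives fibrosis and the epithelial–mesenchymal transition (EMT), to follow the change in gene expression. A549 is a long-established lung carcinoma line, and BEAS-2B was derived from bronchial epithelium and immortalized. Both are labeled as wild type, were grown in RPMI1640 with serum, and were left untreated or received TGF-β1 at 1 or 5 ng/mL, in low-serum medium, over 48 h. The labels do not give the medium of the untreated cells during these 48 h. Each of the 6 conditions is 1 library, so no difference below has a replicate check and no p-value is given. Each cell line is a single established line, so the lines cannot stand for their tissues of origin.

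Tight junctions seal the space between neighboring epithelial cells. Their strands are built from claudins and occludin, and the scaffold protein ZO-1, the product of TJP1, ties these strands to actin. Desmosomes give mechanical strength: desmoplakin, the product of DSP, links them to keratin filaments, and plakoglobin, the product of JUP, connects desmoplakin to the desmosomal cadherins. EPCAM is an adhesion molecule of epithelial cells that associates with CLDN7. ESRP1 and ESRP2 are RNA-binding proteins that direct the epithelial splicing of transcripts such as FGFR2, CD44, CTNND1 and ENAH. During EMT, transcription factors of the ZEB and SNAI families repress junction genes through the E-box, and the ESRP genes are typically repressed as well.

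The libraries were made with QuantSeq, which reads only the 3′ end of polyadenylated transcripts, so a count stands for a transcript end and does not show which exons were spliced in. Total counts ranged from 4120624 to 7841350 per library, and the upper limit set by a count of 0 (3 counts) was 0.383 to 0.728 CPM, which is the count relative to the total of its library. Counts were scaled between libraries by TMM, and a normalized count is the scaled value at the mean library size. The study's ND value was taken as log2(normalized count + 1), so its minimum of 7 is a normalized count of 127. The markers of epithelial cells, KRT7, KRT8, KRT18, KRT19 and CDH1, summed to 25332 to 28800 normalized counts in A549 and 3236 to 4379 in BEAS-2B. These markers moved unequally in A549 at 5 ng/mL, where KRT7 was 4.35-fold higher and KRT8, KRT18, KRT19 and CDH1 were 4.36-fold, 1.92-fold, 5.82-fold and 102-fold lower. CDH1, which encodes E-cadherin, was at 0 to 2 counts in the BEAS-2B libraries, and the 8 markers of lung epithelial lineages summed to 2 to 12 counts per library, with SFTPC, SCGB1A1 and KRT14 at 0 throughout. The 5 fibroblast markers summed to 14, 128 and 30 counts in A549 at 0, 1 and 5 ng/mL. They summed to 1282 to 1576 in BEAS-2B, where THY1 gave 1160 to 1410 of them. In A549 each of the 5 had its highest count and normalized count at 1 ng/mL, a library that every A549 comparison with this dose uses. DCN, a matrix gene of fibroblasts, had 2, 53 and 6 counts in A549 and at most 4 in BEAS-2B. The 5 endothelial markers summed to at most 4 counts and the 5 immune markers to 6 to 108, with PTPRC at 0 to 4. Whether any of these lists had a part in the differences below was not tested. In bulk RNA, fewer cells with a transcript and less transcript per cell cannot be told apart.

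Promoters of 7 of the genes, CLDN1, CLDN4, CLDN7, OCLN, TJP1, DSP and JUP, were found in RefSeq (GRCh38.p14), with 13 promoters in all. Each window runs from 250 bases before the transcription start to 50 bases behind it. The windows were searched for the E-box to which ZEB and SNAI proteins bind, written CACCTG or, on the other strand, CAGGTG. The letters of both forms differ, and no other motif was searched. At least 1 match was present in 5 of the 7 genes (71.4%), against 6571 of all 27305 genes with a promoter (24.1%). By window, 6 of 13 held a match (46.2%), against 7231 of 35116 (20.6%). A match is a description of the letters, not a measured binding site. The following stretches, up to 30 bases behind the start, are shown because CLDN1, CLDN7, OCLN and JUP had lower normalized counts at 5 ng/mL in both cell lines and DSP had not. Each reads 5′ to 3′ along the strand of its gene, and the capitals mark the E-box letters.
CLDN7 promoter 2, minus strand, chr17:7262449-7262728: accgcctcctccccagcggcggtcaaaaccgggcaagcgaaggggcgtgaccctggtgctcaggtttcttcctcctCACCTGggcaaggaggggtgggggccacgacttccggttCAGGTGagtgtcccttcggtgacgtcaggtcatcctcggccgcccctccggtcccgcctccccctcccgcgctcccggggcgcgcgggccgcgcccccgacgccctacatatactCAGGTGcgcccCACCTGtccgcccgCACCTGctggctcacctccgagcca
OCLN promoter 2, plus strand, chr5:69492540-69492819: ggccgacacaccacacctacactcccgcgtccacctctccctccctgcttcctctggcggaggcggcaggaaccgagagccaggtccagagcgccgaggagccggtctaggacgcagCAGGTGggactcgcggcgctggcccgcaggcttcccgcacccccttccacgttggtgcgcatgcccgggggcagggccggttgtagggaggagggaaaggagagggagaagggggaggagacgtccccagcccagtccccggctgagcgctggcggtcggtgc
JUP promoter 2, minus strand, chr17:41785947-41786226: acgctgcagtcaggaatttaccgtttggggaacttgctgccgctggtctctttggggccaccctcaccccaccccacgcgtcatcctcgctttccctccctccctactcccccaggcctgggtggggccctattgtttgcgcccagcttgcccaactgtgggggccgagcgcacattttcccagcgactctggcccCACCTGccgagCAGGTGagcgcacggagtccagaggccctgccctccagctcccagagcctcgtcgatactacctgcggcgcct
DSP promoter 1, plus strand, chr6:7541421-7541700: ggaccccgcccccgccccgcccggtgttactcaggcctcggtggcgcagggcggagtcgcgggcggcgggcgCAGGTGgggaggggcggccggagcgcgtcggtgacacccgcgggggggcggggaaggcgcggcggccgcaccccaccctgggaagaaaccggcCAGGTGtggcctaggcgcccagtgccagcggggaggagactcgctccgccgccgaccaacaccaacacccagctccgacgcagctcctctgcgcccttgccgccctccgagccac
CLDN1 promoter 1, minus strand, chr3:190322417-190322696: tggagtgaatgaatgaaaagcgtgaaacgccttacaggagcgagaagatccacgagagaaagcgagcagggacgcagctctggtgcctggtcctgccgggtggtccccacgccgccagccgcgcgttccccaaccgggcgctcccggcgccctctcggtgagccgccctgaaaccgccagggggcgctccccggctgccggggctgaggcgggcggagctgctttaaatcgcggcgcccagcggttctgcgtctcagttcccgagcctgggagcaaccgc

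The CLDN7 window held 5 matches, which began at positions −174, −135, −20, −9 and 6 from the transcription start. Its other promoter held 0. The OCLN window held 1 match at −133 and a further one at 36, behind the stretch shown, while the overlapping first promoter of OCLN held 1 at −33. Both matches of the JUP window lay close together at −54 and −43. DSP, whose normalized counts were not lower at 5 ng/mL, had 2 matches at −178 and −85, and CLDN1, with a clear difference in both cell lines, had 0. CLDN4 had 0, and 1 of 4 TJP1 promoters had a match, at −88. Genes with and without these letters were thus found on both sides.

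**Figure D1:**
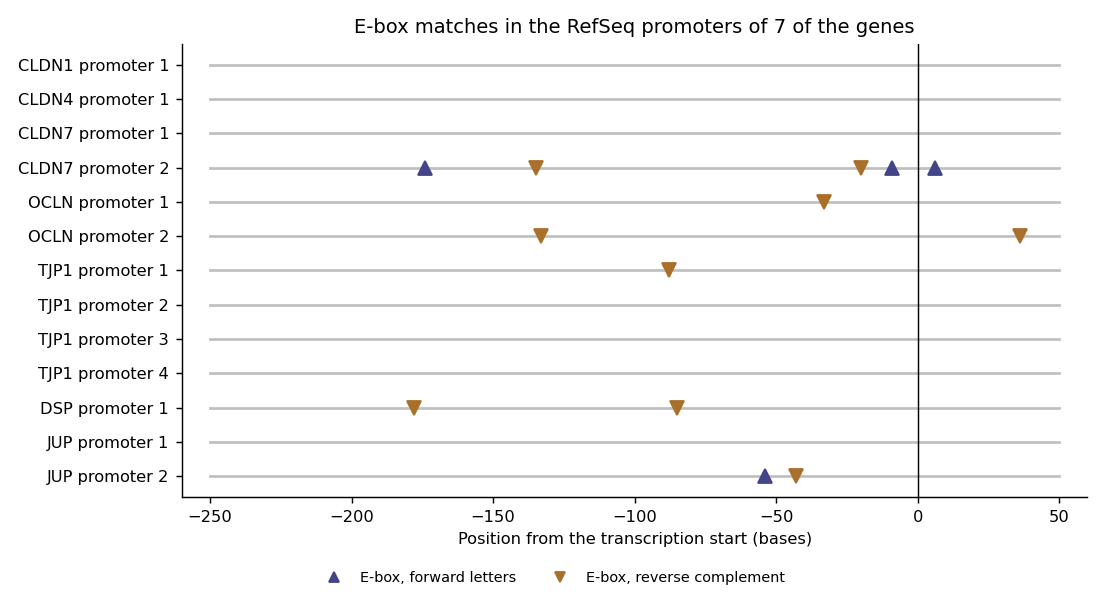
Positions of E-box letters in the 13 RefSeq promoters of 7 genes; the x axis gives bases from the transcription start and triangles give the orientation of the match. CLDN7 promoter 2 carries 5 matches, and 7 of the 13 windows carry 0.

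In the untreated cells, the genes fell into 3 kinds. TJP1 and DSP had at least 438 counts in both lines, and EPCAM and CLDN4 were nearly or fully without counts in BEAS-2B. The remaining genes with counts, ESRP2, CLDN1, CLDN7, OCLN and JUP, were measured in both. This comparison asks how far both lines resemble each other before treatment. The fold rule asked for an FC of at least 2 and the ND minimum of 7 in either library compared. Both numbers are the study's, while the scale of the ND value and letting either library reach the minimum were chosen here. At 5 ng/mL, 1220 entries in A549 and 783 in BEAS-2B were lower by this rule. Each is already more than the study selected in both directions, so its limit is not matched. With log2(CPM + 1) as the ND value, 1 of 3 members tested was lower in A549 at 5 ng/mL, against 15.9% of all entries. In BEAS-2B only 1 member, DSP, was tested and it was not lower, against 10.2% of all entries. CLDN1 and JUP lay below this limit there and were not tested. By the fold rule, 1 of the 4 members that reached the level, JUP, was higher in A549 than in BEAS-2B, where 18.1% of all entries tested were higher. A second rule asks whether the exact 95% counting interval of the ratio lies wholly on a single side of 1, for entries with at least 10 counts in either library. This interval covers counting error only and not the spread between cultures. Whether molecular identifiers were used is not given in the sources used here, so the counts may include copies of the same molecule. It lay above 1 for 6 of 9 members, EPCAM, CLDN1, CLDN4, TJP1, DSP and JUP, against 37.8% of all entries. It lay below 1 for 1 of 9, CLDN7, against 34.7% of all entries.

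JUP had 835 counts in untreated A549 and 151 in untreated BEAS-2B, a ratio of 5.74 (interval 4.82 to 6.88). EPCAM had 49 and 0 counts. Its level in A549 was 16.97-fold the 3 counts that a count of 0 allows, and the lower end of the exact interval of the ratio was 13.3. CLDN4 had 20 and 3 counts, a ratio of 6.92 with a wide interval of 2.05 to 36.4. CLDN7, with 29 and 58 counts, was the member whose interval lay below 1, at an A549 to BEAS-2B ratio of 0.519 (0.321 to 0.825). ESRP2 with 55 and 81 counts and OCLN with 60 and 80 had intervals that held 1, from 0.491 to 1.01 and from 0.548 to 1.10. The intervals of TJP1 (1.30, 1.15 to 1.48), CLDN1 (1.32, 1.10 to 1.58) and DSP (1.56, 1.43 to 1.69) excluded 1 at ratios under 2. Between these libraries the log2 FC over all genes moved with GC content, from 0.17 in the bin of lowest GC to −0.49 in the highest. After subtraction of the GC bin medians, CLDN1, TJP1 and DSP went from 0.40, 0.38 and 0.64 to 0.20, 0.18 and 0.48. CLDN7 went from −0.92 to −0.56, CLDN4 from 2.48 to 2.69 and JUP from 2.52 to 2.87. No intervals were computed under this subtraction.

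**Figure D2:**
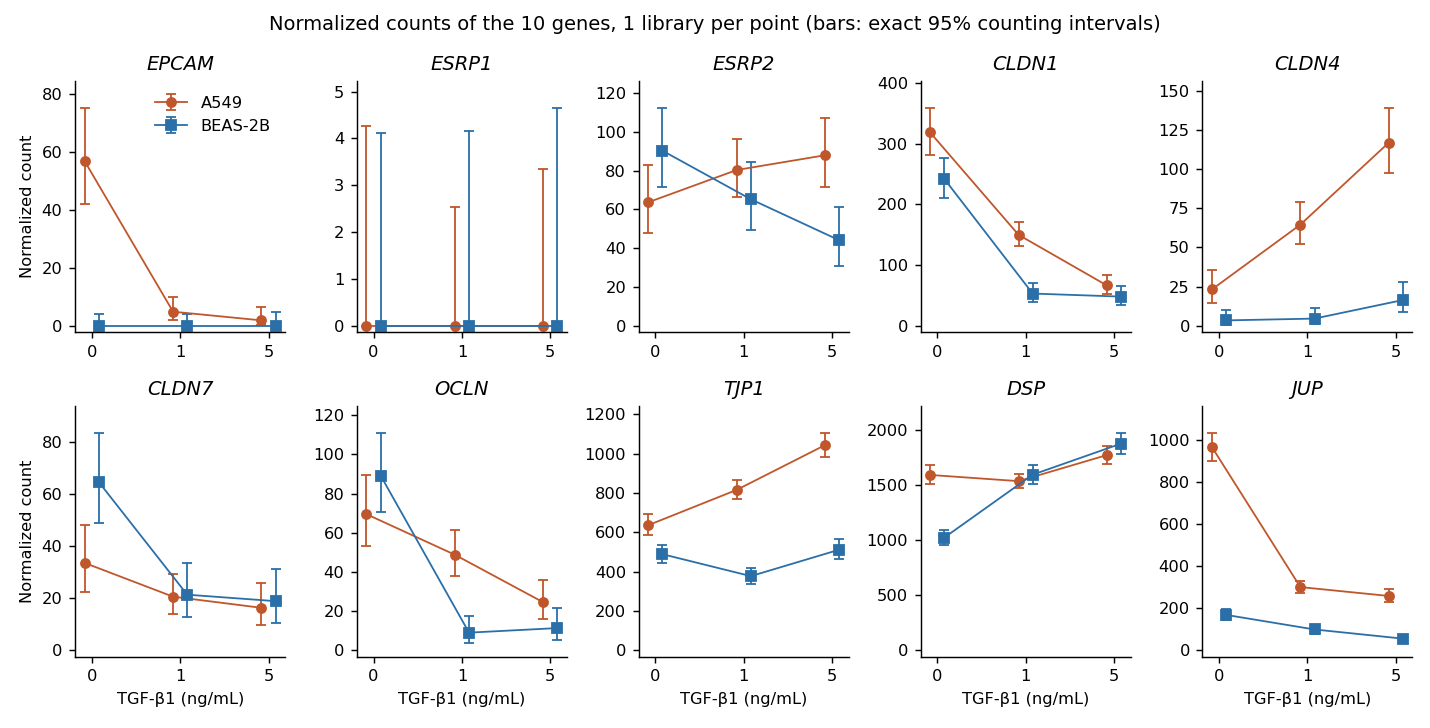
Normalized counts (y axis, separate scale per gene, from 0) of the 10 genes over 0, 1 and 5 ng/mL TGF-β1 (x axis, equally spaced), with 1 library per point and exact 95% counting intervals as bars. CLDN1 and JUP decline in both lines, CLDN4 climbs from 23.2 to 117 in A549, and ESRP1 is at 0 in all 6 libraries.

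After treatment, each library was compared with the untreated library of its own cell line, so both doses share a control and are not independent of each other. In A549 cells at 1 ng/mL, 2 of the 4 members at sufficient level, CLDN1 and JUP, were at least 2-fold lower, where 12.6% of all entries were. The counting interval lay below 1 for 3 of 9 members, EPCAM, CLDN1 and JUP (30.3% of all entries), and above 1 for 2, CLDN4 and TJP1 (32.1% of all entries). The fold rule at 5 ng/mL again gave CLDN1 and JUP as lower, against 17.1% of all entries, and 0 of 4 as higher, against 16.1%. The interval now lay below 1 for 5 of 9 members, EPCAM, CLDN1, CLDN7, OCLN and JUP (34.1% of all entries). It lay above 1 for 3 of 9, CLDN4, TJP1 and DSP, which is near the share among all entries (34.1%). Scaled by total counts, however, DSP at 5 ng/mL changed its direction, to −0.05 on the log2 scale.

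In BEAS-2B cells at 1 ng/mL, 1 of 4 members, CLDN1, was at least 2-fold lower, against 9.13% of all entries. The interval lay below 1 for 5 of 7 members, CLDN1, CLDN7, OCLN, TJP1 and JUP (29.7% of all entries), and above 1 for 1 of 7, DSP (26.9% of all entries). With 5 ng/mL, CLDN1 and JUP were at least 2-fold lower, against 11.6% of all entries, and 0 of 4 were higher, against 7.33%. The interval lay below 1 for 5 of 8 members, ESRP2, CLDN1, CLDN7, OCLN and JUP (31.0% of all entries), and above 1 for 2 of 8, CLDN4 and DSP (29.5% of all entries). When both libraries compared had to reach the ND minimum, CLDN1 and JUP were not tested in BEAS-2B, since their treated levels lay below it. The 2 members tested there were not lower at either dose (4.88% and 6.19% of all entries were). In A549 at 5 ng/mL, 1 of 3 members tested, JUP, was lower (8.80% of all entries). CLDN1 was not tested there for the same reason. With so few members, each of these shares rests on 1 to 5 genes.

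The median log2 FC of the 9 members with counts in A549 was −0.50 at 1 ng/mL and −0.997 at 5 ng/mL, beside 0.05 and 0.01 over all entries with at least 10 counts. For the 8 members with counts in BEAS-2B it was −0.61 and −1.30, beside −0.03 and −0.02. These log2 FC values are computed on the normalized count plus 1, which understates the change of genes with few counts. The members did not move as a unit. Their log2 FC at 5 ng/mL in A549 ran from −4.36 for EPCAM to 2.29 for CLDN4, and in BEAS-2B from −2.87 for OCLN to 1.999 for CLDN4.

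**Figure D3:**
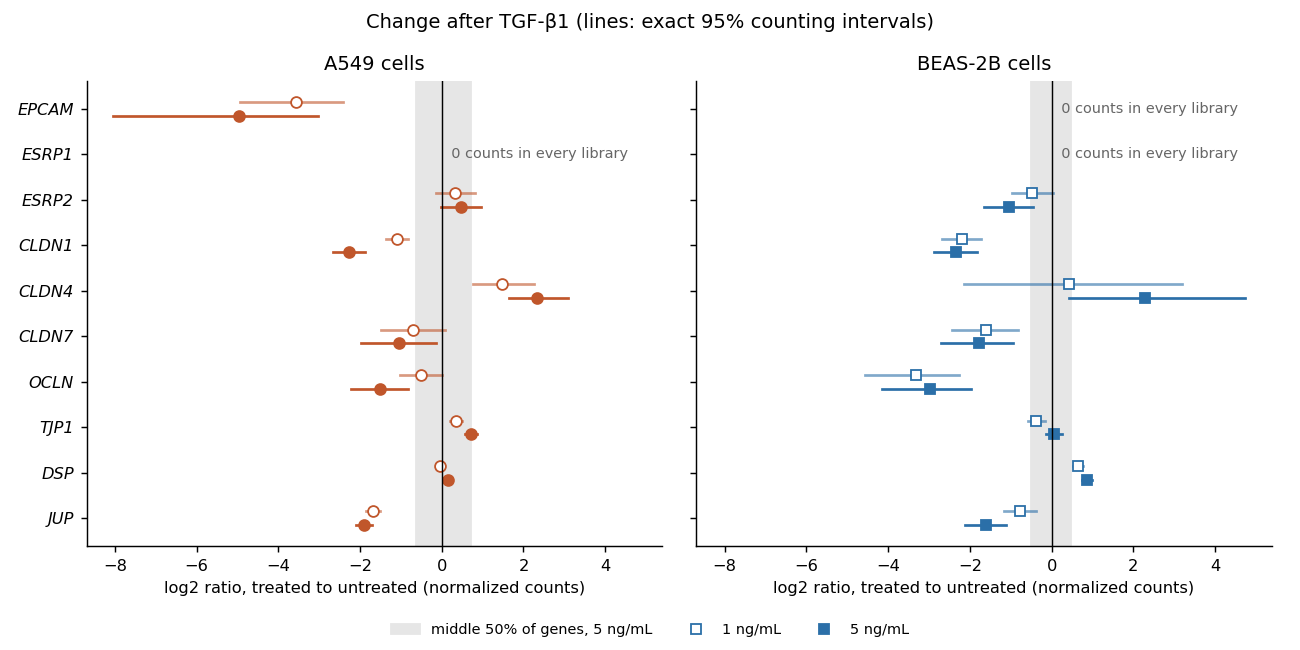
log2 ratio of treated to untreated normalized counts (x axis) for the members (y axis) at 1 ng/mL (open) and 5 ng/mL (filled) in both cell lines, with exact 95% counting intervals as lines and the middle 50% of all genes at 5 ng/mL in gray. CLDN1, CLDN7, OCLN and JUP lie left of 0 in both panels, and the intervals of ESRP2 in A549 cross 0.

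EPCAM, on the plus strand of chromosome 2 (47345158 to 47387601, GENCODE annotation of GRCh38), had 49 counts in untreated A549 cells, 7 at 1 ng/mL and 2 at 5 ng/mL. Its normalized counts were 56.8, 4.81 and 1.81. The level was thus 11.8-fold lower at 1 ng/mL (interval 5.32 to 30.9). At 5 ng/mL the treated to untreated ratio was 0.0320 (0.00377 to 0.122), which rests on 2 counts. From 1 to 5 ng/mL the ratio was 0.377 with an interval of 0.0382 to 1.98, so a further decline was not detectable at this depth. EPCAM never reached the ND minimum of 7, so the fold rule did not test it. In BEAS-2B, 0 counts in each of the 3 libraries left no ratio to compute.

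The splicing factors differed from EPCAM. ESRP1 had 0 counts in each of the 6 libraries, 0 of 31062326 counts in all, an upper limit of 0.0966 CPM over both lines together. In single libraries this limit was 0.383 to 0.728 CPM. ESRP1 expression was not detectable at this depth in either line, and no effect of TGF-β1 on it can be measured here. Whether the counted intervals hold its transcript end is not given in the sources used here. ESRP2, on the minus strand of chromosome 16 (68229111 to 68238102), had 55, 117 and 97 counts in A549 and 81, 58 and 35 in BEAS-2B, at 0, 1 and 5 ng/mL. Normalized counts went from 63.7 to 80.4 and 88.0 in A549, and from 90.3 to 65.3 and 44.1 in BEAS-2B. In A549 the treated to untreated ratios of ESRP2 were 1.26 (0.908 to 1.77) and 1.38 (0.982 to 1.96), and both intervals held 1. In BEAS-2B the ratio at 1 ng/mL was 0.722 with an interval of 0.507 to 1.02 that held 1. At 5 ng/mL ESRP2 was 2.05-fold lower, a ratio of 0.488 (0.318 to 0.734). The log2 FC had opposite signs in the cell lines at both doses, but in A549 it was near 0 after a subtraction by GC content given next, and the difference between the lines was not tested.

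2 properties of ESRP2 bear on its counts. Its 3′ end overlaps NFATC3 on the opposite strand and AC020978.5 on the same strand, which has no entry under this name. The strand setting of the counting is not given in the sources used here, so reads of these genes cannot be told apart with certainty. NFATC3 had 362, 365 and 259 counts in A549 and 393, 231 and 203 in BEAS-2B. ESRP2 transcripts are also rich in G and C (59.6%), and in A549 the log2 FC over all genes moved with this content, from −0.28 in the bin of lowest GC to 0.80 in the bin of highest GC at 5 ng/mL. When the median of its GC bin was subtracted, ESRP2 in A549 went from a log2 FC of 0.33 to −0.08 at 1 ng/mL and from 0.46 to 0.02 at 5 ng/mL. In BEAS-2B, where the bin medians at 5 ng/mL ranged from −0.13 to 0.23, it stayed at −1.02.

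Among the claudins at 5 ng/mL, the interval lay below 1 for CLDN1 and CLDN7 and above 1 for CLDN4 in both cell lines. CLDN1, a barrier-forming claudin on the minus strand of chromosome 3 (190305701 to 190322475), had 275, 218 and 73 counts in A549 and 217, 47 and 38 in BEAS-2B. Its normalized counts were 319, 150 and 66.2 in A549 and 242, 52.9 and 47.9 in BEAS-2B. In A549 the level was thus lower at each dose than at the dose before, whereas in BEAS-2B nearly the whole difference was present at 1 ng/mL. CLDN1 in A549 was 2.13-fold lower at 1 ng/mL (ratio 0.470, 0.392 to 0.564) and 4.81-fold lower at 5 ng/mL (ratio 0.208, 0.158 to 0.270). Its log2 FC at 1 ng/mL was −0.90 after subtraction of the GC bin medians, short of 2-fold. In BEAS-2B it was 4.58-fold lower (ratio 0.219, 0.156 to 0.301) and 5.06-fold lower (ratio 0.198, 0.136 to 0.280).

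CLDN7, the claudin that associates with EPCAM, lies on the minus strand of chromosome 17 (7259903 to 7263983). It had 29, 30 and 18 counts in A549 and 58, 19 and 15 in BEAS-2B, so all of its libraries were below the ND minimum. The A549 ratio was 0.613 at 1 ng/mL, with an interval of 0.356 to 1.06 that held 1, and 0.486 at 5 ng/mL (0.254 to 0.905). CLDN7 transcripts hold 59.6% G and C. After subtraction of the GC bin medians its log2 FC in A549 was −1.09 and −1.44, against −0.68 and −0.997 without it. In BEAS-2B the CLDN7 ratios were 0.330 (0.186 to 0.563) and 0.292 (0.154 to 0.522), and both intervals lay below 1. The 3′ end of CLDN7 overlaps AC003688.1 on the same strand, which has no entry under this name, and ELP5 on the opposite strand. The latter had 173, 133 and 156 counts in A549 and 65, 22 and 26 in BEAS-2B. ELP5 thus also had fewer counts in treated BEAS-2B cells, and the part of such shared reads was not tested.

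CLDN4, a claudin of tight epithelia on the plus strand of chromosome 7 (73799542 to 73832693), had 20, 94 and 129 counts in A549. Its normalized counts were 23.2, 64.6 and 117, just under the 127 that the ND minimum asks for. The ratios to the control were 2.79 (1.71 to 4.77) at 1 ng/mL and 5.05 (3.14 to 8.54) at 5 ng/mL. In BEAS-2B, CLDN4 had 3, 4 and 13 counts, and the ratio of 4.89 at 5 ng/mL had an interval of 1.34 to 26.8. The direction at 5 ng/mL was thus the same in both lines, but its size in BEAS-2B is known only within wide limits. CLDN4 transcripts hold 57.5% G and C, and after subtraction of the GC bin medians its log2 FC in A549 was 1.09 at 1 ng/mL and 1.86 at 5 ng/mL, against 1.44 and 2.29 without it.

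OCLN, which encodes the strand protein occludin, lies on the plus strand of chromosome 5 (69492292 to 69558104). It had 60, 71 and 27 counts in A549 and 80, 8 and 9 in BEAS-2B. The normalized counts were 69.5, 48.8 and 24.5 in A549 and 89.2, 9.0 and 11.3 in BEAS-2B, a gradual course in the first line and an early drop in the second. OCLN in A549 had a ratio of 0.702 at 1 ng/mL, whose interval of 0.491 to 1.01 held 1, and was 2.84-fold lower at 5 ng/mL (ratio 0.352, 0.215 to 0.564). In BEAS-2B it was 9.91-fold lower at 1 ng/mL (ratio 0.101, 0.0421 to 0.209) and 7.87-fold lower at 5 ng/mL (ratio 0.127, 0.0561 to 0.253). A partial copy of OCLN has its own entry, LOC647859, with 14, 25 and 12 counts in A549 and 27, 0 and 6 in BEAS-2B, so OCLN counts are uncertain to that extent.

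TJP1, the ZO-1 gene on the minus strand of chromosome 15 (29699367 to 29968865), had 132, 151 and 188 CPM in A549, with 1187 and 1150 counts in the treated libraries, and 438, 335 and 406 counts in BEAS-2B. Normalized counts in A549 went from 636 to 816 and 1043, and in BEAS-2B they were 489, 377 and 511. TJP1 in A549 had ratios of 1.28 (1.16 to 1.42) and 1.64 (1.48 to 1.82), both above 1 but under 2-fold. In BEAS-2B the ratio of 0.772 at 1 ng/mL (0.667 to 0.892) lay below 1, and that of 1.05 at 5 ng/mL (0.912 to 1.20) held 1 and turned under scaling by total counts, to −0.06 on the log2 scale.

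DSP and JUP encode proteins of the desmosomal plaque. DSP, on the plus strand of chromosome 6 (7541575 to 7586717), had 1377, 2240 and 1958 counts in A549 and 919, 1420 and 1493 in BEAS-2B. Its normalized counts were 1595, 1539 and 1776 in A549 and 1025, 1598 and 1881 in BEAS-2B. In A549, the DSP ratio at 1 ng/mL was 0.965 (0.902 to 1.03), and the ratio of 1.11 at 5 ng/mL (1.04 to 1.19) lay above 1 under TMM but turned under total counts. In BEAS-2B the ratios of DSP were 1.56 (1.43 to 1.70) and 1.83 (1.69 to 1.99), higher at both doses but short of 2-fold.

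JUP, on the minus strand of chromosome 17 (41754604 to 41786931), had 835, 438 and 285 counts in A549 and 151, 88 and 44 in BEAS-2B. The normalized counts of JUP were 967, 301 and 259 in A549 and 168, 99.0 and 55.4 in BEAS-2B. Treated A549 libraries were 3.21-fold lower (ratio 0.311, 0.276 to 0.350) and 3.74-fold lower (ratio 0.267, 0.233 to 0.306) than the control. JUP transcripts hold 61.5% G and C. After subtraction of the GC bin medians the log2 FC of JUP in A549 was −2.17 and −2.39, against −1.68 and −1.90 without it. In BEAS-2B the JUP ratio was 0.588 at 1 ng/mL (0.447 to 0.770), and JUP was 3.04-fold lower at 5 ng/mL (ratio 0.329, 0.230 to 0.463). At 5 ng/mL, A549 cells retained a higher JUP level than untreated BEAS-2B cells, 259 against 168 normalized counts.

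From 1 to 5 ng/mL, the members took different courses. In A549, CLDN1 was at least 2-fold lower at 5 than at 1 ng/mL, 1 of the 4 members at sufficient level, where 1.79% of all entries were. Its ratio between the doses was 0.442 (0.334 to 0.579), and that of OCLN was 0.502 (0.310 to 0.792). CLDN4 had a ratio of 1.81 (1.38 to 2.39). JUP had 0.859 with an upper end just below 1, so most of its difference in A549 was present at 1 ng/mL. In BEAS-2B the intervals of CLDN1 (0.905, 0.574 to 1.42), CLDN7 (0.884, 0.418 to 1.84) and OCLN (1.26, 0.431 to 3.75) between the doses held 1. JUP, by contrast, had a ratio of 0.560 (0.381 to 0.813) there. These comparisons share the library at 1 ng/mL with the ones above.

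Ratios of raw counts within a library do not depend on the scaling between libraries, and 3 pairs of members are given for this reason. In each pair a member without a lower count interval at 5 ng/mL was set over one with it, with these values known, so a higher ratio follows from the choice and is a description only. They compare relative change only, since levels of different genes in 3′ counts are not on a common scale. The DSP counts per JUP count were 1.65, 5.11 and 6.87 in A549 and 6.09, 16.1 and 33.9 in BEAS-2B at 0, 1 and 5 ng/mL. The CLDN4 counts per CLDN1 count were 0.0727, 0.431 and 1.77 in A549 and 0.0138, 0.0851 and 0.342 in BEAS-2B. At 5 ng/mL the interval for this pair was 1.32 to 2.39 in A549 and 0.167 to 0.657 in BEAS-2B, above the untreated intervals of 0.0437 to 0.115 and 0.00283 to 0.0409. The TJP1 counts per OCLN count were 9.15, 16.7 and 42.6 in A549 and 5.475, 41.9 and 45.1 in BEAS-2B.

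**Figure D4:**
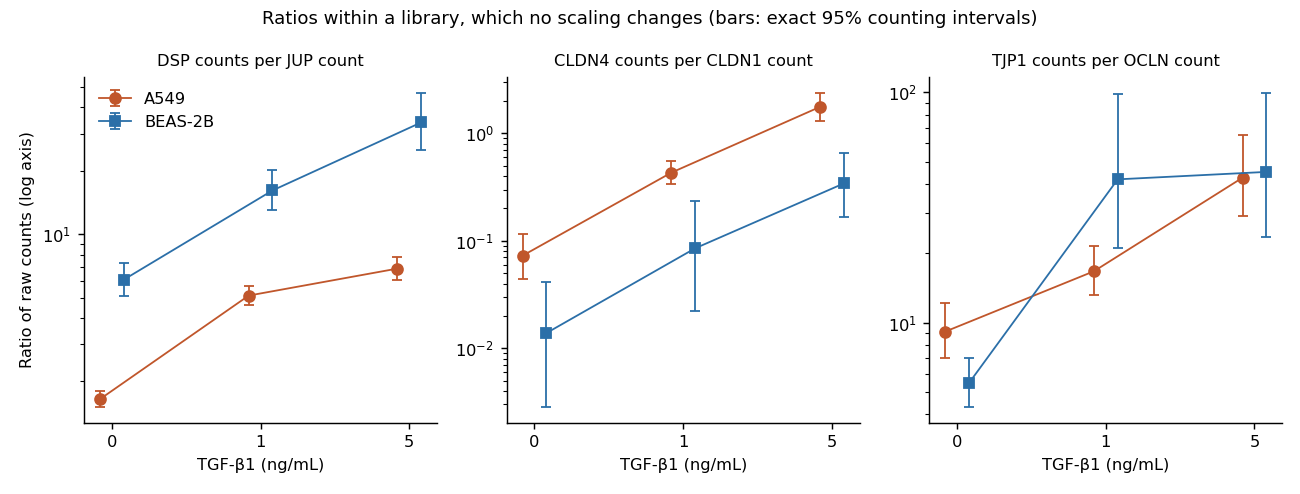
Ratios of raw counts of 3 gene pairs within each library (y axis, log scale, separate per panel) over TGF-β1 dose (x axis) in A549 and BEAS-2B cells, with exact 95% counting intervals as bars. All 3 ratios are higher at 5 ng/mL than in the control in both lines, which the choice of the pairs fixes.

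The genes around the members were taken from lists of tight junction, desmosome and adherens junction genes, genes linked to EPCAM, epithelial and EMT transcription factors, splicing regulators and genes spliced by the ESRP proteins. Of the 93 genes reported, 44 reached the ND minimum in A549 and 42 in BEAS-2B at 5 ng/mL, of which 11 were at least 2-fold lower and 5 higher in A549, and 7 lower and 1 higher in BEAS-2B. Of all entries at this level, 17.1% were lower and 16.1% higher in A549, and 11.6% and 7.33% in BEAS-2B. Scaled by total counts, these shares were 21.9% and 11.2% in A549 and 14.7% and 5.43% in BEAS-2B, and CLDN15 alone remained at least 2-fold higher in A549. With 5 ng/mL, 1 of 7 other tight junction genes at sufficient level in A549 was lower and 1 higher, with a median log2 FC of −0.03 beside 0.11 over all 7115 entries at this level. CLDN2, a pore-forming claudin, was 2.06-fold lower there, from 1483 to 918 counts, but short of 2-fold after subtraction of the GC bin medians. CLDN15 had 39 counts in the A549 control and 163 at 5 ng/mL, a ratio of 3.27. The other genes of the list lay below the minimum. Without a minimum, CLDN3, CLDN16, CLDN23, CGN, CRB3, CXADR, INADL, MARVELD3 and TJP3 were also at least 2-fold lower in A549, several from few counts. CGNL1 and CLDN18 were then also higher. Of all entries, 25.3% were then lower and 17.5% higher. TJP3 had 54, 2 and 1 counts and CGNL1 had 23, 50 and 61. In BEAS-2B, 0 of 5 were lower and 0 higher, with a median of −0.23 beside 0.03 over 6735 entries. Without a minimum, CLDN9, CLDN12, CLDN18 and PARD6B were lower there and CLDN15, CXADR and TJP3 higher (19.3% and 16.9% of all entries). MPP5, a scaffold protein of the apical polarity complex, had ratios of 0.980 in A549 and 0.636 in BEAS-2B. PARD3, also of the apical polarity machinery, had ratios of 0.702 and 1.37.

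Of the other desmosome genes, 1 of 4 in A549 and 2 of 5 in BEAS-2B were lower and 0 and 1 higher, with medians of 0.02 and −0.26. PERP, a tetraspan protein of desmosomes, was 2.77-fold lower at 5 ng/mL in A549 and 4.69-fold lower in BEAS-2B. PKP1, which encodes plakophilin 1, had 72, 109 and 184 counts in BEAS-2B, a ratio of 2.89 at 5 ng/mL, and 0, 0 and 1 in A549. PKP3, which encodes plakophilin 3, was the second lower gene of BEAS-2B, at a 2.23-fold lower level. DSG2, the desmosomal cadherin desmoglein 2, had ratios of 1.504 and 1.78, under the 2-fold limit.

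Of the adherens junction genes, 2 of 8 in A549 were lower and 1 was higher, and 0 of 7 in BEAS-2B moved either way by the fold rule, with medians of 0.12 and −0.17. CDH1 went from 640 counts in untreated A549 to 30 and 8, 102-fold lower at 5 ng/mL (51.5 to 238). CTNND1, which encodes p120-catenin and stands in both the adherens junction list and the list of genes spliced by the ESRP proteins, was 3.81-fold lower in A549, with 781, 416 and 262 counts. Its counts in BEAS-2B were 390, 210 and 202. The higher gene was VCL, which encodes the actin linker vinculin, at a ratio of 2.12. PVRL2, a nectin, had ratios of 0.638 and 0.530.

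Of the genes linked to EPCAM, 1 of 4 reached the level in A549 and was lower, and 0 of 4 did in BEAS-2B. This was SPINT2, a serine protease inhibitor, with 1383, 428 and 165 counts in A549, 10.7-fold lower at 5 ng/mL. Its counts in BEAS-2B were 87, 9 and 5.

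Of the epithelial transcription factors, 1 of 2 in each line was lower. This was ELF3, an epithelial ETS factor, with 1146, 425 and 117 counts in A549 and 330, 18 and 11 in BEAS-2B. KLF5 had ratios of 0.509 and 0.974. GRHL2, which maintains the junction genes in many epithelia, had 0, 3 and 2 counts in A549 and 0 in each BEAS-2B library, and OVOL2 had 0 in all 6. Of the EMT transcription factors, ZEB1 had 135, 374 and 358 counts in A549, a ratio of 2.08 at 5 ng/mL, and 134, 137 and 166 in BEAS-2B, a ratio of 1.399. ZEB2 had ratios of 0.992 and 1.18. SNAI1 with 25, 6 and 14 counts in A549 and 7, 36 and 22 in BEAS-2B, and SNAI2 with 4, 15 and 8 and 10, 56 and 48, were below the ND minimum. In A549 the intervals of SNAI1 lay below 1, at ratios of 0.142 (0.0477 to 0.355) at 1 ng/mL and 0.439 (0.211 to 0.877) at 5 ng/mL, and that of SNAI2 at 5 ng/mL held 1 (1.57, 0.420 to 7.11). In BEAS-2B the intervals of both at 5 ng/mL lay above 1, at ratios of 3.55 (1.46 to 9.84) and 5.42 (2.71 to 12.0).

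Of the 16 splicing regulators, 13 reached the level in A549, where 3 were lower and 1 higher, and 12 in BEAS-2B, where 2 were lower and 0 higher. The medians were −0.21 and −0.30. RBM47, an RNA-binding protein of epithelial cells, had 477, 256 and 134 counts in A549, 4.55-fold lower at 5 ng/mL, and 20, 4 and 0 in BEAS-2B. HNRNPF was 8.29-fold lower in A549 and 7.22-fold lower in BEAS-2B, and SRSF1 4.02-fold and 3.45-fold lower. QKI, which acts in the splicing program of mesenchymal cells, had ratios of 0.554 and 0.721. PTBP1 was the regulator that was higher in A549, at a ratio of 2.03, but it was short of 2-fold after subtraction of the GC bin medians.

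Of the 11 genes spliced by the ESRP proteins, 9 reached the level in A549, where 3 were lower and 1 higher, and 10 in BEAS-2B, where 2 were lower and 0 higher. The medians were −0.14 and −0.24. NUMB, an endocytic adaptor, was 5.42-fold lower in A549 and 3.65-fold lower in BEAS-2B. CD44, a hyaluronan receptor, was 2.38-fold lower in A549, and ENAH, an actin regulator, was the higher gene there, at a ratio of 2.15. RALGPS2 was 3.61-fold lower in BEAS-2B, with 249, 72 and 61 counts. These values are gene levels, and the isoforms that ESRP proteins control are not seen in 3′ counts.

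**Figure D5:**
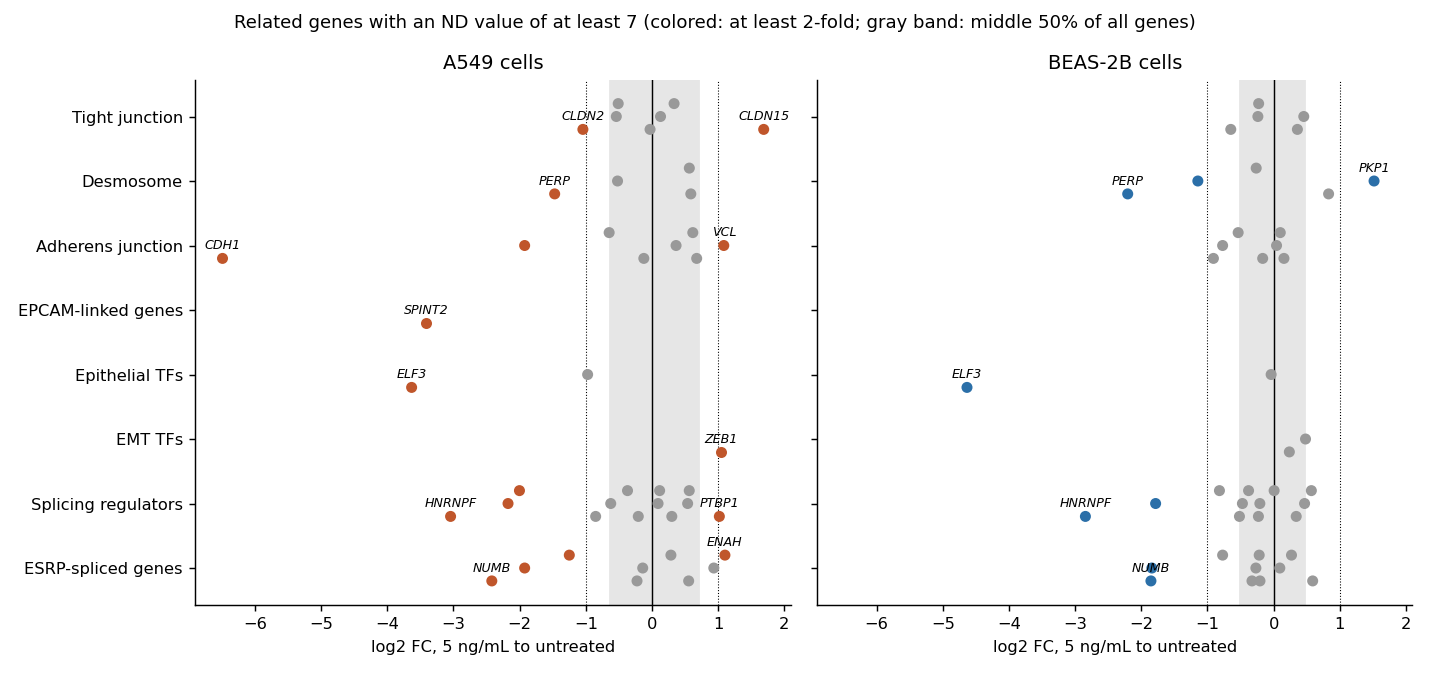
log2 FC at 5 ng/mL (x axis) of the listed genes that reach the ND minimum of 7 (points, by list on the y axis) in A549 and BEAS-2B cells, with dotted lines at 2-fold, colored points beyond it, and the middle 50% of all entries that reach this minimum in gray. ELF3, PERP, HNRNPF and NUMB lie beyond 2-fold on the lower side in both lines, and CDH1 is the leftmost point in A549.

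The course of ESRP2 over the 6 libraries was most like that of STX4, LCOR, PARP6, ORC4 and RNF10 among 8159 genes, with a Pearson correlation of the ND values of 0.980 for STX4 and 0.951 for RNF10. For EPCAM the most similar genes were BCAS1, AKR1C4, GACAT2, CEBPG and FSTL4, with values from 0.998 to 0.995. ESRP1 has no course to compare. The 6 points come from 2 cell lines and share their libraries, and the EPCAM pattern rests mainly on untreated A549, so these values only describe likeness.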

How the data were processed

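QuantSeq 3′-mRNA sequencing was done on A549 and BEAS-2B at 3 TGF-β1 doses (0, 1 and 5 ng/mL), 1 library each, grouped by their labels. The deposited tables hold whole-number read counts by gene symbol, which the authors did not normalize. The submitters' processing notes name Bowtie2, bedtools and hg19, and the study names ExDEGA for quantification. Strand setting, annotation and filters are not given in the sources used here. Total counts were 4120624 to 7841350.

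Counts were scaled with TMM factors (edgeR 4.0.16, R 4.3.3) over all entries and 6 libraries. A gene was selected at the study's limits, an FC of 2 (pseudocount 1) and an ND value of 7. The scale of the ND value, and that either library compared may reach 7, were chosen here. Ratios carry exact 95% Clopper-Pearson intervals of the counts, computed with Python 3.11.15, numpy 2.4.6, pandas 2.3.3 and scipy 1.17.1. Figures were drawn with matplotlib 3.10.9. A ratio against 0 counts is a bound from 3 counts, which takes the other count as exact. No test between conditions was run. The steps were tested on simulated data. Alternatives included the size factors of DESeq2 1.42.0.

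The 10 genes and all lists were chosen with earlier results of these data known. The genes named from each list are the 2 with the greatest absolute log2 FC at 5 ng/mL in each cell line at sufficient level. CDH1, ZEB1, ZEB2, SNAI1, SNAI2, RBM47, QKI, GRHL2 and OVOL2 are named in any case, as are the 5 genes most like EPCAM and ESRP2. PTBP1, VCL, ENAH, CD44, PKP3 and the tight junction genes below the ND minimum were named after their values were seen. Some listed genes are not reported here and stand outside the counts of their lists. Gene positions and GC content come from the GENCODE 29 annotation of GRCh38 and describe the genes, not the counted intervals. Promoters come from RefSeq (GRCh38.p14).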

Additional observations from a re-analysis of the deposited data

Results flagged for a closer look

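The log2 FC of ESRP2 had opposite signs in the cell lines at both doses. Its log2 FC against the untreated library was 0.33 at 1 ng/mL and 0.46 at 5 ng/mL in A549 cells, and −0.46 and −1.02 in BEAS-2B cells. After subtraction of the GC bin medians, the A549 values were −0.08 and 0.02. The difference between the lines was not tested, since each condition is 1 library. The counting intervals of the ratio held 1 at both doses in A549 and at 1 ng/mL in BEAS-2B, and lay below 1 at 5 ng/mL in BEAS-2B.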

How the results depend on the processing

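13 alternatives were planned, with earlier results known, and the subtraction of the median log2 FC of 20 bins of transcript GC content was chosen after seeing the data. No selected gene changed direction, while the unselected DSP, TJP1 and ESRP2 did so under the settings named above. The DESeq2 size factors, total counts, upper quartile factors and TMM within each cell line left the counts of the 10 genes by the fold rule as they were. TMM within each cell line gives no comparison of the untreated lines. No paired analysis was possible because each group has 1 library, and no replicate could be left out.

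The ND minimum decided most counts, since 6 of the 10 genes lie below it. A percentage in brackets is the share of all entries tested in that direction under the same setting. When both libraries had to reach it, 1 of 3 members tested was lower in A549 at 5 ng/mL (8.80%). From 1 to 5 ng/mL in A549, 0 of 3 were lower (0.749%), and in BEAS-2B 0 of 2 at 1 and at 5 ng/mL (4.88% and 6.19%). CLDN1 was not tested in any of these comparisons, nor JUP in those of BEAS-2B, since their treated levels fell below the minimum. Without a minimum, 4 members were lower and 1 higher at 5 ng/mL in A549 (25.3% and 17.5%), 1 was higher there at 1 ng/mL (15.5%), and 2 were lower from 1 to 5 ng/mL (11.9%). In BEAS-2B, 3 were then lower at 1 ng/mL (18.4%), 5 lower and 1 higher at 5 ng/mL (19.3% and 16.9%), and 1 higher from 1 to 5 ng/mL (11.6%), while 3 were higher in untreated A549 than in untreated BEAS-2B (31.1%). Taking log2(CPM + 1) as the ND value sets a higher limit at these depths. In A549, 1 of 3 members tested was then lower at each dose against the control (11.6% and 15.9%), and 0 of 2 from 1 to 5 ng/mL (0.981%). In BEAS-2B, 0 of 1 was lower at either dose (7.79% and 10.2%), with CLDN1 and JUP not tested. At a fold limit of 1.5, 1 member was higher in A549 at 5 ng/mL (29.9%), 2 were lower and 1 higher in BEAS-2B at 1 ng/mL (19.4% and 15.2%), 1 was higher there at 5 ng/mL (19.2%), and 2 were higher in untreated A549 (28.2%). At a limit of 3, 1 was lower in A549 at 1 ng/mL (5.99%) and 0 from 1 to 5 ng/mL (0.325%). Under the GC subtraction, 1 member, JUP, was lower in A549 at 1 ng/mL (12.4%).

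Among the 93 related genes at 5 ng/mL, 11 were lower and 5 higher in A549 (17.1% and 16.1%), and 7 lower and 1 higher in BEAS-2B (11.6% and 7.33%). Scaled by total counts, 1 was higher in A549 (11.2%). With the minimum in both libraries, 7 were lower in A549 (8.80%), and 2 were lower and 0 higher in BEAS-2B (6.19% and 4.63%). Without a minimum, 30 were lower and 10 higher in A549 (25.3% and 17.5%), and 23 lower and 12 higher in BEAS-2B (19.3% and 16.9%). With log2(CPM + 1), 3 were higher in A549 (21.7%), and 2 lower and 0 higher in BEAS-2B (10.2% and 8.11%). At a limit of 1.5, 9 were higher in A549 (29.9%), and 11 lower and 3 higher in BEAS-2B (22.2% and 19.2%), and at a limit of 3, 1 was higher in A549 (5.90%) and 0 in BEAS-2B (2.82%). Under the GC subtraction, 12 were lower and 4 higher in A549 (17.0% and 13.7%). CLDN2 was then no longer among the lower and PTBP1 no longer among the higher genes, while PKP3 and PVRL2 were lower.

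Depth limits EPCAM, CLDN4, CLDN7 and OCLN, whose counts were 30 or fewer in several libraries, and ESRP1, which had 0 counts throughout.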
